A study of Homo sapiens with 6 samples.

Results

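Interferon regulatory factors (IRFs) and interferon-stimulated genes were examined in BT549 cells, a mesenchymal breast cancer cell line, after knockdown of BNC2. The 42 genes were taken by symbol from the 23346 genes of the table of read counts, and 36 of them passed the filter on low counts (over 1 CPM, or count scaled to library size, in 3 or more of the 6 libraries). They comprised 8 IRFs with STAT2 and 33 genes that interferon is known to induce. RNA-seq was performed on 3 libraries from wild-type BT549 cells transfected with BNC2 siRNA and 3 from cells given a negative control (NC) siRNA. Each received 20 nM siRNA, and RNA was prepared 6 d later. The BNC2 siRNA was an equal mixture of 3 duplexes against the same mRNA, so both groups carried transfected double-stranded RNA, and no untransfected cells were compared here. The methods describe the replicates as biological without naming the cultures they came from. All cells were of 1 cell line, so the p-values measure the spread between these cultures only.

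Interferons are secreted when a cell senses viral nucleic acid. Type I interferon binds its receptor and activates JAK kinases, which leads a complex with STAT2 and IRF9 to assemble on interferon-stimulated response elements (ISREs) in promoters. The genes so induced encode sensors of viral RNA, proteins that block entry or translation of viral RNA, and the IRFs that sustain or restrain the response. IRF1 is also induced by interferon-gamma, through a gamma-activated site (GAS) in its promoter.

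BNC2, the targeted gene (chr9:16409501-16870841, GRCh37, minus strand), was measured at 65.6, 51.5 and 58.6 CPM with NC siRNA and at 35.5, 36.6 and 41.6 CPM with BNC2 siRNA. It fell to 64.6% of the control (log2 fold change -0.63, SE 0.09, adjusted p = 8.2e-06). The sense strands of the siRNAs are shown because they define the perturbation, with the 19 bases of the duplex in capitals and the overhang in lower case. In the BNC2 siRNAs these bases are identical to the mRNA, and the antisense strand pairs with it.
BNC2 siRNA (1): GACUUGUGAUCAGUGUAAAtt
BNC2 siRNA (2): GGAAGACAUUCUAUGACAAtt
BNC2 siRNA (3): CCUCUGUACGAAGCCGAAAtt
NC siRNA: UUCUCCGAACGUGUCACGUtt
The first BNC2 sequence lies in exon 4 of BNC2 (chr9:16583000-16583018), the second in exon 6 (chr9:16436834-16436852) and the third in exon 7 (chr9:16419045-16419063). No transcript of the 42 genes held an exact match to any of the 4 sequences.

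The libraries held 16093978 to 18246254 counts in genes. Most genes differed between the siRNA groups: 8879 of the 12186 genes tested were called (adjusted p at most 0.05), 4462 higher and 4417 lower. With 1 siRNA mixture against 1 control, loss of BNC2 and other effects of the mixture cannot be told apart. The mesenchymal markers VIM, FN1, CDH2, ZEB1 and SPARC summed to 6367 to 6461 CPM in NC siRNA libraries and 6501 to 6755 CPM in BNC2 siRNA libraries. All 5 were called: SPARC fell to 69.7% of the control, and the other 4 rose, CDH2 the most at 2.57 times the control. The 5 epithelial markers summed to at most 0.28 CPM in any library, with EPCAM and ESRP1 at 0.

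Of the 36 IRFs and interferon-stimulated genes tested, 16 were higher with BNC2 siRNA, 11 were lower and 9 were not called. The share called was 75%, close to the background of 72.9% over all genes tested. The share higher was 44.4% (background 36.6%) and the share lower was 30.6% (background 36.2%). In 26 of the 36 genes the libraries of the 2 groups did not overlap, against 74.9% of all genes tested. Their median log2 fold change was 0.16, beside 0.0014 for all genes tested; with scaling by total counts it was 0.0802, beside -0.0745 for all genes. Under that scaling 13 of the 36 genes and 3950 of all 12186 genes were called as higher. Single genes ranged from -3.31 (IRF5) to 2.00 (IFITM2). IRF5, counted among the 11 lower, passed the filter through the NC siRNA libraries alone and so could only have been lower. The next largest fall was -1.49 (IRF1). The genes thus did not move in a single direction: OAS2, IFIT2, IFITM2 and IFI44L were at least 2.85 times as high with BNC2 siRNA, whereas IRF1, SP110 and IFIT3 were lower. Each of the 7 functional groups is described in turn below, and the same background over all genes tested applies to each.

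**Figure D1:**
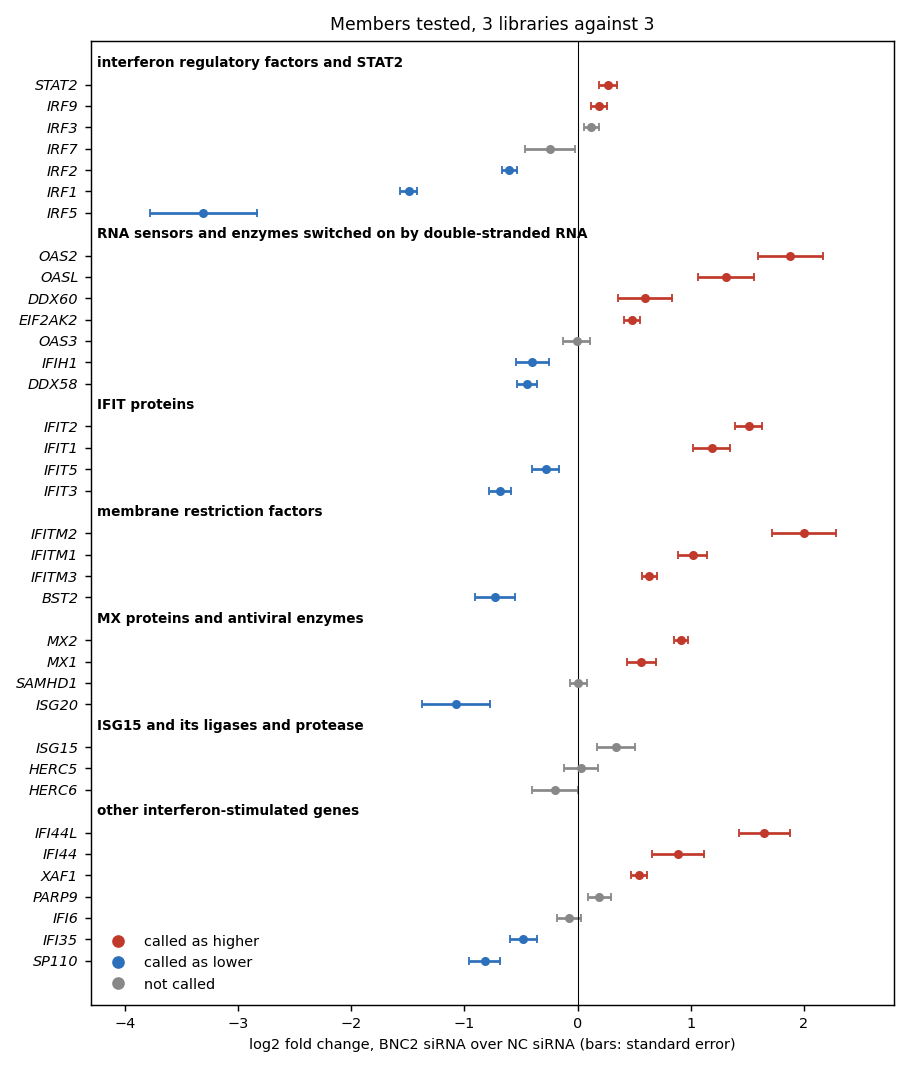
Log2 fold change (x axis, BNC2 siRNA over NC siRNA) of each of the 36 genes tested, grouped by function; points are edgeR estimates, bars are standard errors and n = 3 libraries per group. Red marks the 16 genes called as higher, blue the 11 called as lower and grey the 9 not called; the IFIT, membrane restriction and RNA sensor groups each hold genes on both sides of 0.

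Among the IRFs, IRF1, IRF2 and IRF5 fell and IRF9 and STAT2 rose, while IRF3 and IRF7 were not called. IRF1, an activator of interferon-stimulated and antigen presentation genes (chr5:131776132-131844411, GRCh37, minus strand), was measured at 70.8, 72.6 and 70.6 CPM in NC siRNA libraries and at 24.4, 27.5 and 23.9 CPM in BNC2 siRNA libraries. The groups were far apart and each was tight. IRF1 fell to 35.5% of the control (log2 fold change -1.49, SE 0.07, adjusted p = 2.07e-11). IRF2, which competes with IRF1 for the same promoter sites and mostly restrains transcription there, was at 59.1, 58.5 and 58.8 CPM against 38.7, 37.0 and 40.5 CPM. It fell to 65.8% of the control (log2 fold change -0.60, SE 0.07, adjusted p = 4.69e-07), and every BNC2 siRNA library lay below every NC siRNA library.

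IRF5, an activator of cytokine genes best known in myeloid and B cells, had 24, 32 and 19 counts in NC siRNA libraries and 2, 1 and 4 counts in BNC2 siRNA libraries. Its log2 fold change was -3.31 (SE 0.47, adjusted p = 9.13e-06). IRF5 passed the filter through the NC siRNA libraries alone, so among the genes tested it could only have been lower, and its size of change rests on few reads. The 6 leukocyte markers with any count summed to 4.42 to 4.84 CPM in NC siRNA libraries and 3.38 to 4.33 CPM in BNC2 siRNA libraries. They did not move together: CD14 fell from 1.70 to 0.635 CPM (adjusted p = 0.000523) and FCER1G from 1.57 to 0.738 CPM (adjusted p = 0.00352), whereas ITGAM rose from 0.956 to 2.14 CPM (adjusted p = 0.000653). Their part in the fall of IRF5 was not tested. In such bulk libraries, fewer cells of a type and less RNA per cell cannot be told apart.

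The subunits STAT2 and IRF9 of the interferon-activated complex were slightly higher. STAT2 was at 30.3, 30.9 and 26.7 CPM with NC siRNA and at 36.9, 35.9 and 33.1 CPM with BNC2 siRNA. Its libraries did not overlap between the groups (log2 fold change 0.27, SE 0.08, adjusted p = 0.00762). IRF9, the DNA-binding subunit, was at 43.5, 45.4 and 41.6 CPM against 51.8, 50.5 and 46.5 CPM. The gap between the groups was narrow, with a log2 fold change of 0.19 (SE 0.07, adjusted p = 0.0242). The call of IRF9 was lost in 6 and that of STAT2 in 2 of 14 alternative analyses, the scaling by total counts among them for both.

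IRF3 and IRF7 are the factors that switch on interferon genes after sensing. IRF3 was at 106, 117 and 114 CPM against 129, 123 and 114 CPM, which overlapped (log2 fold change 0.12, SE 0.06, adjusted p = 0.0955). Its log2 fold change was 0.0603 without NC siRNA replicate 1 (adjusted p = 0.389) and 0.165 without BNC2 siRNA replicate 3 (adjusted p = 0.0456). IRF7 was at 2.65, 4.14 and 3.43 CPM against 2.33, 3.67 and 2.61 CPM, also overlapping (log2 fold change -0.24, SE 0.22, adjusted p = 0.332). The lymphoid and myeloid factors IRF4 and IRF8 were not tested. IRF4 had at most 2 counts in any library, and IRF8 had 0 counts in all 6, which allows up to 0.168 to 0.191 CPM (3 counts per library, counting error only).

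**Figure D2:**
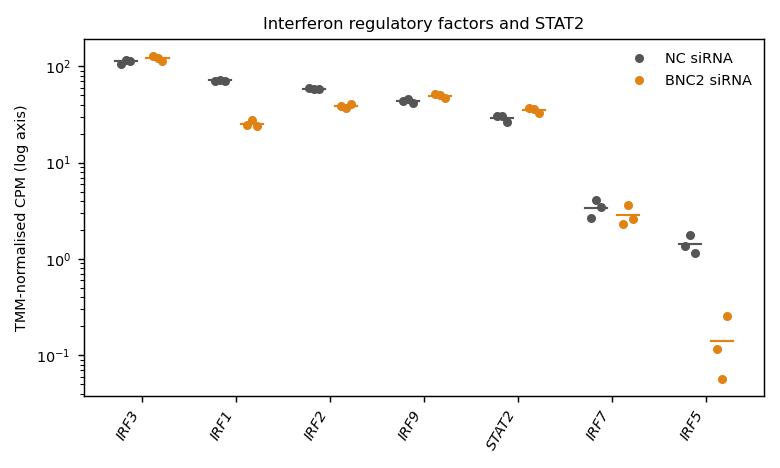
TMM-normalised CPM (y axis, log scale) of the 6 IRFs tested and STAT2 in each library; each point is 1 library and each line the group mean. IRF1 and IRF2 separate clearly downwards with BNC2 siRNA, IRF5 falls to 0.142 CPM on average, and IRF3 and IRF7 overlap.

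Per kilobase of transcript, the order of these factors in NC siRNA libraries was IRF3 (70.4 ± 3.74 CPM per kb, SD, n = 3), IRF9 (26.8 ± 1.18), IRF2 (26.1 ± 0.137), IRF1 (20.1 ± 0.312), STAT2 (6.65 ± 0.509), IRF7 (1.77 ± 0.389) and IRF5 (0.493 ± 0.114). IRF9 and IRF2 did not differ beyond their spread, while the other neighbours were separated by more than their SDs. With BNC2 siRNA, IRF1 stood at 7.12 ± 0.548 CPM per kb and STAT2 at 8.02 ± 0.445, and the ranges of these genes over the libraries overlapped. IFITM3 had the highest level per kilobase of all 42 genes, at 348 ± 27.4 with NC siRNA and 540 ± 35.7 with BNC2 siRNA.

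**Figure D3:**
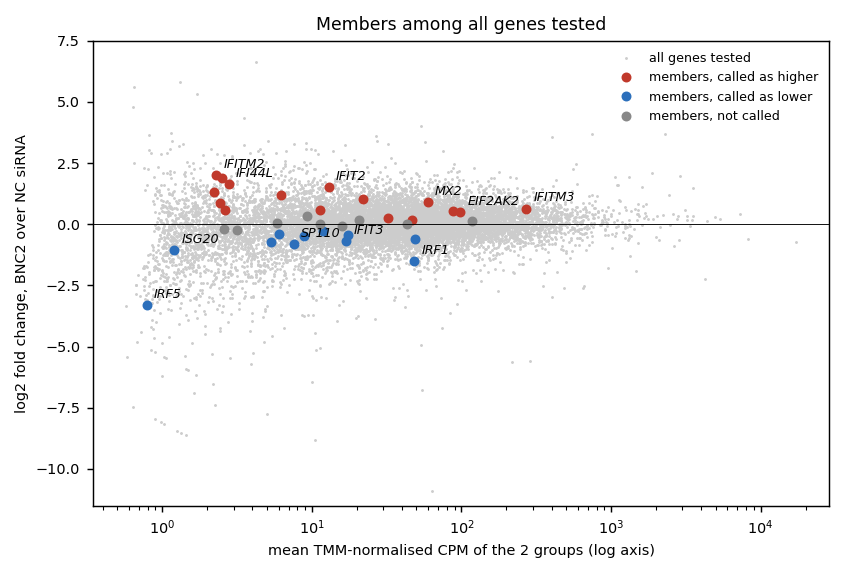
Log2 fold change (y axis) against mean TMM-normalised CPM of the groups (x axis, log scale) for all 12186 genes tested (light grey) and the 36 IRFs and interferon-stimulated genes (red higher, blue lower, dark grey not called). The coloured points lie within the cloud of all genes, and several with large rises, such as IFITM2 and IFI44L, are at low levels.

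The sensors and enzymes that respond to double-stranded RNA were divided. Of the 7 tested, EIF2AK2, DDX60, OAS2 and OASL were higher, DDX58 and IFIH1 were lower and OAS3 was not called. The share called was 85.7% (72.9% over all genes tested), with 57.1% higher (36.6%) and 28.6% lower (36.2%). OAS2, an oligoadenylate synthetase whose product activates RNase L, was at 0.676, 1.29 and 1.26 CPM with NC siRNA and at 4.71, 4.57 and 2.55 CPM with BNC2 siRNA. It was 3.68 times as high in BNC2 siRNA libraries, which did not overlap the controls (log2 fold change 1.88, SE 0.29, adjusted p = 1.82e-05). OASL, a related protein without synthetase activity that aids RIG-I, was at 1.46, 1.51 and 0.843 CPM against 2.91, 3.72 and 2.93 CPM. The groups were again apart, with a log2 fold change of 1.31 (SE 0.25, adjusted p = 0.000145). EIF2AK2, which encodes PKR, the kinase that halts translation when it binds double-stranded RNA, rose from 81.6 ± 6.21 to 114 ± 9.65 CPM (SD, n = 3; log2 fold change 0.48, adjusted p = 1.73e-05).

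The cytoplasmic RNA sensor genes DDX58 and IFIH1 were lower. DDX58, which encodes RIG-I, fell from 20.3 ± 1.27 to 14.9 ± 0.425 CPM (log2 fold change -0.45, adjusted p = 0.000358), and IFIH1, which encodes MDA5, fell from 6.82 ± 0.901 to 5.16 ± 0.338 CPM (log2 fold change -0.40, adjusted p = 0.0221). DHX58, which encodes the related sensor LGP2 and lies outside the 42 genes, was under the filter at 6, 6 and 3 against 7, 6 and 9 counts. The related helicase DDX60 was called as higher (2.09 ± 0.505 against 3.16 ± 0.793 CPM, adjusted p = 0.0362) although its libraries overlapped between groups. IFIH1 lost its call in 2 and DDX60 in 6 of the 14 alternatives. The remaining oligoadenylate synthetases were at 11.3 ± 0.498 against 11.2 ± 1.43 CPM for OAS3 (adjusted p = 0.964) and at 12, 14 and 16 against 12, 19 and 7 counts for OAS1, which was not tested. The 3 neighbouring OAS genes on chromosome 12 (chr12:113343661-113449528, GRCh37) therefore included 1 gene that rose, 1 not called and 1 under the filter.

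The IFIT genes lie side by side on chromosome 10 (chr10:91043451-91181362, GRCh37, 138 kb) in the order IFIT2, IFIT3, IFIT1 and IFIT5, and encode proteins that bind viral RNA and block its translation. IFIT1 and IFIT2 rose while IFIT3 and IFIT5 fell. IFIT2 was at 7.66, 7.17 and 5.36 CPM with NC siRNA and at 19.02, 19.07 and 19.67 CPM with BNC2 siRNA. It was 2.85 times as high, with no overlap (log2 fold change 1.51, SE 0.12, adjusted p = 1.07e-08). IFIT1 was at 3.38, 3.53 and 4.52 CPM against 8.78, 9.87 and 7.19 CPM. The BNC2 siRNA libraries were all above the controls (log2 fold change 1.19, SE 0.16, adjusted p = 5.81e-06). IFIT3, whose protein binds and stabilises IFIT1, went the opposite way, from 22.1, 21.3 and 19.5 CPM to 11.9, 13.3 and 13.9 CPM. Its groups were equally distinct, at a log2 fold change of -0.69 (SE 0.10, adjusted p = 8.83e-06). IFIT5 fell from 13.0 ± 0.538 to 10.7 ± 1.30 CPM (log2 fold change -0.28, adjusted p = 0.0356), a call that was lost in 7 of the 14 alternatives.

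Of the membrane proteins that restrict viruses, all 3 IFITM genes rose and BST2 fell. The IFITM genes, whose products hinder fusion of viruses with cell membranes, lie within 25.8 kb of chromosome 11 (chr11:303655-329475, GRCh37). IFITM2 was at 0.901, 1.12 and 0.722 CPM with NC siRNA and at 4.83, 3.67 and 2.55 CPM with BNC2 siRNA. It had the largest rise of the 36 genes, 4.005 times the control without overlap (log2 fold change 2.00, SE 0.28, adjusted p = 7.35e-06), at a low level: only 1 NC siRNA library exceeded the filter. IFITM1 was at 11.998, 17.4 and 14.1 CPM against 31.0, 32.8 and 24.4 CPM. Its libraries were also distinct (log2 fold change 1.02, SE 0.13, adjusted p = 2.22e-06). IFITM3, the most abundant, rose from 212 ± 16.7 to 330 ± 21.8 CPM (log2 fold change 0.64, adjusted p = 2.4e-07). These genes are near-identical over part of their length: 11.3% of 75-base windows of IFITM1, 5.04% of IFITM2 and 12.5% of IFITM3 occur exactly in a transcript of another locus, and reads from such windows map to several places and were not counted. BST2, or tetherin, which holds budding virus at the cell surface, was at 5.41, 6.95 and 7.77 CPM with NC siRNA and at 4.42, 4.51 and 3.12 CPM with BNC2 siRNA. It fell to 60.4% of the control without overlap (log2 fold change -0.73, SE 0.18, adjusted p = 0.00157).

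The neighbouring GTPase genes MX2 and MX1 (chr21:42733926-42841998, GRCh37), which trap viral nucleoproteins or capsids, both rose. MX2 was at 40.2, 41.3 and 42.1 CPM with NC siRNA and at 78.3, 78.1 and 76.8 CPM with BNC2 siRNA. With this small spread it was 1.89 times as high (log2 fold change 0.92, SE 0.06, adjusted p = 1.29e-09). MX1 rose from 9.10 ± 1.28 to 13.5 ± 1.24 CPM (log2 fold change 0.56, adjusted p = 0.00069). ISG20, an exonuclease that degrades viral RNA, fell from 1.80, 1.40 and 1.69 CPM to 1.05, 0.564 and 0.700 CPM. Its groups were distinct but low, with 1 BNC2 siRNA library over the filter (log2 fold change -1.07, SE 0.30, adjusted p = 0.00449). SAMHD1, which depletes the nucleotides needed for viral DNA synthesis, was at 42.9 ± 3.37 against 43.1 ± 2.41 CPM (adjusted p = 0.939). RSAD2, which encodes viperin, was under the filter at 9, 10 and 3 counts with NC siRNA and 17, 18 and 26 counts with BNC2 siRNA. These counts did not overlap, and in the analysis without the filter its log2 fold change was 1.54 (SE 0.42, adjusted p = 0.000731).

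ISG15, a ubiquitin-like protein that is attached to other proteins, and the ligase genes HERC5 and HERC6 were not called. UBE2L6, the conjugating enzyme of ISG15 and a gene outside the 42, fell by 0.34 on the log2 scale (adjusted p = 0.00622). ISG15 itself was at 5.97, 10.3 and 8.37 CPM with NC siRNA and at 11.98, 10.27 and 8.85 CPM with BNC2 siRNA, overlapping (log2 fold change 0.34, SE 0.17, adjusted p = 0.0775). The ligase gene HERC5 was at 5.83 ± 0.489 against 5.93 ± 0.870 CPM and its neighbour HERC6 at 2.75 ± 0.474 against 2.39 ± 0.121 CPM (adjusted p = 0.863 and 0.398). USP18, the protease that removes ISG15 and also dampens the receptor, was not tested, at 14, 12 and 13 against 11, 15 and 14 counts. Leaving out single libraries moved ISG15 both ways. Without NC siRNA replicate 2 its log2 fold change was 0.52 (adjusted p = 0.014), and without BNC2 siRNA replicate 3 it was 0.44 (adjusted p = 0.0425). It was 0.135 (adjusted p = 0.409) without NC siRNA replicate 1 and 0.23 (adjusted p = 0.28) without BNC2 siRNA replicate 1. With all 6 libraries and no filter it was 0.37 (adjusted p = 0.00943).

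Among the other interferon-stimulated genes, IFI44L, IFI44 and XAF1 rose, SP110 and IFI35 fell, and IFI6 and PARP9 were not called. IFI44L was at 1.30, 1.51 and 1.204 CPM with NC siRNA and at 3.32, 5.02 and 4.33 CPM with BNC2 siRNA. It was 3.14 times as high without overlap (log2 fold change 1.65, SE 0.23, adjusted p = 5.15e-06). Its neighbour IFI44 (both within chr1:79085587-79129763, GRCh37) was at 1.41, 2.13 and 1.57 CPM against 3.78, 3.05 and 2.61 CPM. The groups were separate here too (log2 fold change 0.89, SE 0.23, adjusted p = 0.00255). XAF1, which favours apoptosis by opposing the inhibitor XIAP, rose from 71.7 ± 5.00 to 104 ± 7.23 CPM (log2 fold change 0.54, adjusted p = 2.88e-06). SP110, a nuclear body protein, fell from 10.1, 10.3 and 8.61 CPM to 6.16, 5.02 and 5.22 CPM. Every BNC2 siRNA library lay below the controls (log2 fold change -0.82, SE 0.14, adjusted p = 4.42e-05). IFI35 fell from 10.4 ± 0.798 to 7.44 ± 0.218 CPM (adjusted p = 0.00178). IFI6 was at 16.3 ± 1.47 against 15.4 ± 1.71 CPM (adjusted p = 0.53) and PARP9 at 19.2 ± 1.40 against 21.9 ± 2.85 CPM (adjusted p = 0.105). IFI27, often among the strongest interferon-induced genes, had at most 2 counts in any library.

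**Figure D4:**
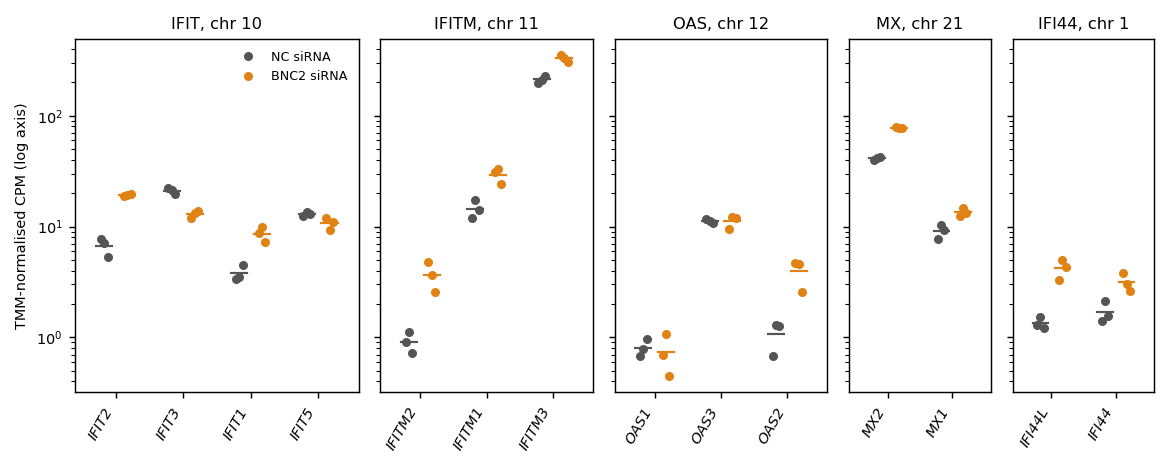
TMM-normalised CPM (y axis, log scale) of genes that lie side by side in the genome, in chromosomal order within each panel; each point is 1 library and each line the group mean. The IFIT panel holds 2 genes that rise and 2 that fall, whereas all 3 IFITM genes, both MX genes and both IFI44 genes are higher with BNC2 siRNA.

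Promoter sequences were read for the 33 of the 42 genes that matched the RefSeq promoter table (GRCh38.p14, 250 bases before to 50 bases after the start site). The genes without an entry were IRF2, IRF3, IRF7, OAS2, OASL, IFIT2, IFITM2, MX2 and USP18, so 5 of the 16 genes that were higher, OAS2, OASL, IFIT2, IFITM2 and MX2, are not in the counts that follow. An ISRE core, spelled GAAANNGAAA and searched on both strands, was found in 18 of the 33 promoters (54.5%), compared with 1255 of all 35116 promoters of the table (3.57%). It was found in 8 of 11 genes that were higher, in 5 of 10 that were lower and in 4 of 7 that were not called. A GAS core, spelled TTCNNNGAA, was found in 8 of the 33 (24.2%), compared with 7.66% of all promoters, and in 3 of 11 genes higher, 3 of 10 lower and 0 of 7 not called. In IFITM1, BST2 and IFI27, matches of the 2 motifs overlap. The genes were listed as IRFs and genes known to be induced by interferon, which acts through such motifs. Shares above those of all promoters can therefore follow from the choice of list, and they are not a result of the comparison between siRNAs.

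Stretches around the cores are shown for genes of opposite response, to let the sites be compared. Each runs 5′ to 3′ along the strand of its gene in GRCh38.p14, with the core in capitals and 10 flanking bases on each side. One site per gene was chosen, so that shared letters can be seen: IFIT1, IFIT3, IFITM1, IFITM3, BST2 and ISG15 each hold 2 ISRE cores and IFIT5 holds 3, and their other cores are not shown.
IFIT1 (higher): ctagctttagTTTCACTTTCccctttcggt
IFIT3 (lower): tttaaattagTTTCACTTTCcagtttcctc
IFIT5 (lower): atttcttaagTTTCAGTTTCtgagcgctcg
IFI44 (higher): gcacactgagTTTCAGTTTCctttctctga
IFITM1 (higher): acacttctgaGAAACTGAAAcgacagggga
BST2 (lower): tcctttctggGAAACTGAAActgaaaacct
ISG20 (lower): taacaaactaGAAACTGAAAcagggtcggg
IFITM3 (higher): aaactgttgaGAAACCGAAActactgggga
MX1 (higher): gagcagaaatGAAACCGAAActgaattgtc
ISG15 (not called): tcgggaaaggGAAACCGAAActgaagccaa
IRF1 (lower), GAS core: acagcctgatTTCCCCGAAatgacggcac
IRF9 (higher), GAS core: accacgtgatTTCTGGGAAaaggccctcc
The same core letters occurred in genes that moved in opposite directions. The search fixed every base of a core except those marked N, and the sites were chosen to show shared letters. Such matches therefore follow in part from the search and the choice of site. IFIT1 (chr10:89392497-89392526, plus strand) and IFIT3 (chr10:89327865-89327894, plus strand) share the core shown, which begins 116 and 122 bases before the respective start site. IFITM1 (chr11:314024-314053, plus strand), which rose, carries the core shown for BST2 (chr19:17405741-17405770, minus strand) and ISG20 (chr15:88638937-88638966, plus strand), which fell. IFITM3 and MX1, which rose, share the core shown with ISG15, which was not called. The GAS core of IRF1 (chr5:132490879-132490907, minus strand) begins 124 bases before its start site, and that of IRF9 (chr14:24161192-24161220, plus strand) 63 bases before. The match is a description of letters, and binding was not measured.

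The ligands of the pathway were nearly silent in both groups. Of 21 interferon genes, 18 had 0 counts in every library, including IFNB1 and IFNG. IFNA5 had 0, 0 and 1 against 0, 0 and 2 counts, and IL29, an interferon-lambda gene, had 0, 0 and 0 against 0, 2 and 5 counts. IFNE, an interferon known from epithelia of the reproductive tract, was the single one tested, at 1.76 ± 0.740 against 2.05 ± 0.469 CPM (log2 fold change 0.23, adjusted p = 0.483).

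Of the 8 receptor and JAK genes tested, 0 were higher, 5 were lower and 3 were not called, at a median log2 fold change of -0.33. The share called was 62.5% (72.9% over all genes tested) and the share lower 62.5% (36.2% over all genes). The largest changes were those of IL10RB, a subunit of the interferon-lambda receptor (58.7 ± 4.92 to 32.6 ± 2.15 CPM, log2 fold change -0.85, adjusted p = 6.23e-08), IFNGR2, a subunit of the interferon-gamma receptor (log2 fold change -0.83, adjusted p = 2.23e-07), and IFNAR2, a subunit of the type I receptor (log2 fold change -0.71, adjusted p = 4.14e-06).

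In nucleic acid sensing, 3 of 8 genes tested were higher, 3 were lower and 2 were not called. These shares, 37.5% in each direction, were close to those over all genes tested (36.6% higher and 36.2% lower). TMEM173, which encodes the adaptor STING of the DNA-sensing pathway, rose from 4.75 ± 1.06 to 11.5 ± 1.21 CPM (log2 fold change 1.28, adjusted p = 1.22e-06). TICAM1, the adaptor of TLR3, fell from 62.2 to 33.4 CPM (log2 fold change -0.90, adjusted p = 6.39e-09), and TBK1, the kinase that activates IRF3, fell from 56.3 to 34.2 CPM (log2 fold change -0.72, adjusted p = 1.12e-07). Of the 5 inhibitors of interferon signalling, 1 was higher, 3 were lower and 1 was not called, so that 80% were called against 72.9% of all genes tested. SOCS1, which blocks JAK kinases, fell from 5.89 ± 0.709 to 0.960 ± 0.260 CPM (log2 fold change -2.60, adjusted p = 1.94e-08), while the related SOCS3 rose from 20.3 ± 3.06 to 40.7 ± 2.23 CPM (log2 fold change 1.00, adjusted p = 9.46e-08). PIAS1, which restrains signalling below the receptor, fell by 0.43 on the log2 scale (adjusted p = 0.000166).

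A further 27 interferon-stimulated genes outside the 42 were counted beside them. Of the 22 tested, 2 were higher, 13 were lower and 7 were not called, at a median log2 fold change of -0.35, where the 36 genes above had 16 higher and 11 lower. The share called was 68.2% (72.9% over all genes tested), with 9.09% higher (36.6%) and 59.1% lower (36.2%). Whether the lists differ was not tested, since both were chosen with results of these data known. The largest changes were falls of LGALS3BP, a secreted glycoprotein (8.95 ± 0.834 to 2.21 ± 0.508 CPM, log2 fold change -2.01, adjusted p = 2.12e-08), TDRD7, an inhibitor of autophagy used by viruses (log2 fold change -1.19, adjusted p = 4.01e-08), and PARP14, an ADP-ribosyltransferase (log2 fold change -1.11, adjusted p = 1.28e-08).

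**Figure D5:**
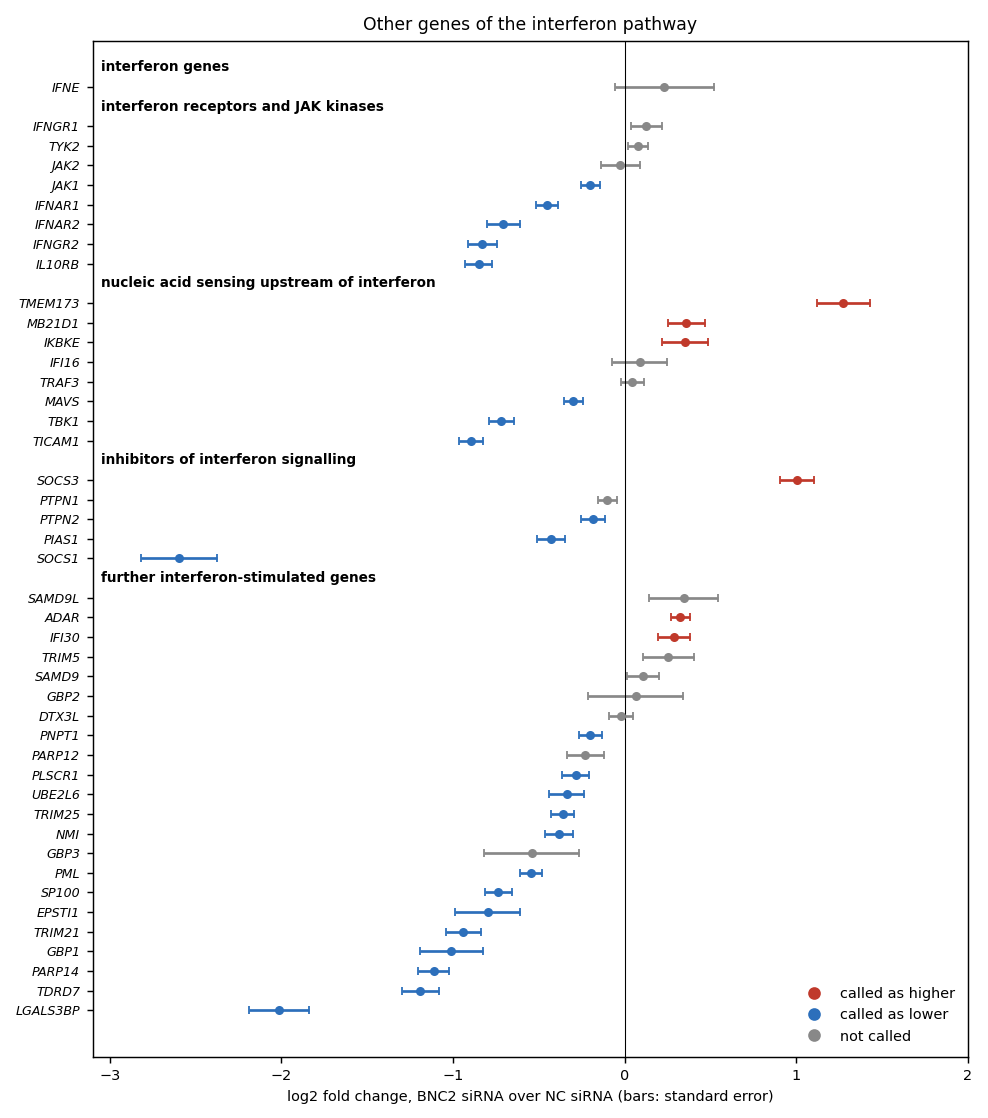
Log2 fold change (x axis, BNC2 siRNA over NC siRNA) of the other interferon pathway genes tested, by role; points are edgeR estimates, bars are standard errors, n = 3 libraries per group, and colours are red for higher, blue for lower and grey for not called. The receptor and JAK genes hold 5 falls and 0 rises, and the further interferon-stimulated genes 13 falls and 2 rises.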

How the data were processed

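The libraries, 3 with NC siRNA and 3 with BNC2 siRNA, were grouped by their labels. The authors isolated poly(A) RNA, sequenced single-end reads and aligned them with STAR 2.6.1d to hg19 with the iGenomes UCSC annotation. The deposited values are read counts per gene, not normalised, of uniquely mapped reads on the strand of the gene. Reads in no gene made up 37.7% to 41.1% of a library. They include the reads that mapped to several places, which made up 8.68% to 9.71% of a library. All reads in no gene were left out of library sizes. The labels and the methods name different lipid reagents for the transfection, and the labels give a medium change after 6 h.

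A gene was tested if 3 or more of the 6 libraries exceeded 1 CPM (12186 genes). Groups were compared in R 4.3.3 with edgeR 4.0.16, using TMM scaling (factors 0.972 to 1.04) and the quasi-likelihood test, two-sided, with Benjamini-Hochberg adjustment over all genes tested. Adjusted p-values in the text are from this test and a gene was called at 0.05 or below. The standard error is the log2 fold change divided by the square root of the F statistic. CPM values are TMM-normalised. At totals of 16093978 to 18246254 counts, 3 counts correspond to 0.168 to 0.191 CPM, and such limits cover counting error only. An exact permutation test of 3 libraries against 3 cannot go below 0.1.

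The 42 genes, their groups and the other lists were chosen with earlier results of these data known. Full statistics are given for the IRFs and STAT2 and for the 12 other genes with the largest change among those called without overlap, for BNC2, and for IFIT3, ISG15 and RSAD2, which were added after their values were seen. Each other list is described by its 3 largest called changes, with UBE2L6, DHX58 and single markers added after their values were seen; other values are given in short. Positions, lengths and 75-base windows come from GENCODE release 44 on GRCh37 (hg19), promoters from RefSeq (GRCh38.p14), and siRNA sequences from the oligonucleotide list of the study. Motifs were searched with Python 3.11.15 and pandas 2.3.3. The scripts were tested on simulated data in which few genes changed, with equal numbers up and down. Most genes differed between the siRNA groups here, so that test does not bear on the choice of scaling. Alternatives were DESeq2 1.42.0, its size factors, total-count scaling, no filter, filterByExpr, the likelihood ratio test, a replicate block, counts of both strands and leaving out each library in turn. A few genes of the lists are not reported here.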

Additional observations from a re-analysis of the deposited data

How the results depend on the processing

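Of the 27 genes called, 22 kept their direction and call in every alternative in which they were tested, 5 lost the call in at least 1, and 0 reversed. IRF5 could be tested in 11 of the 14 alternatives, since without an NC siRNA library it no longer passed the filter. The calls lost were those of IRF9, STAT2, IFIH1, DDX60 and IFIT5. IRF9 was lost without NC siRNA replicate 1 or 3 and without BNC2 siRNA replicate 1 or 2 (log2 fold change 0.14 to 0.18), STAT2 without NC siRNA replicate 3 (0.19), and IFIH1 without NC siRNA replicate 3 or BNC2 siRNA replicate 1 (-0.33 and -0.34). DDX60 was lost without NC siRNA replicate 2 and without BNC2 siRNA replicate 2 or 3 (0.39 to 0.53), and IFIT5 without NC siRNA replicate 2 and without BNC2 siRNA replicate 2 or 3 (-0.30 to -0.18). Scaling by total counts shifted the median of all genes by -0.0761, took the share of rises among calls from 50.3% to 44.5%, and moved the median of the 36 genes from 0.16 to 0.0802 (0.12 to 0.198 when leaving out a library). The numbers of the 36 genes higher and lower were 13 and 11 under that scaling, and those of all 12186 genes 3950 and 4922 (4462 and 4417 with TMM).

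Signs changed in genes not called, all near 0, and the cause was not tested. OAS3 (-0.0065, and -0.07 to 0.101 when leaving out a library) became 0.0223 without the filter, 0.00246 with filterByExpr, and 0.00579 and 0.101 without NC siRNA replicate 1 and BNC2 siRNA replicate 1. SAMHD1 (0.0072, and -0.076 to 0.0586 when leaving out a library) became -0.00069 with DESeq2's size factors, -0.000689 with DESeq2, -0.0687 with total counts, and -0.076, -0.00806 and -0.0208 without NC siRNA replicate 2, BNC2 siRNA replicate 2 and BNC2 siRNA replicate 3. HERC5 (0.031) became -0.0455 with total counts, and -0.0572 and -0.0561 without NC siRNA replicate 2 and BNC2 siRNA replicate 2. IRF3, ISG15 and PARP9 became called as higher without the filter (0.15, 0.37 and 0.22) and without BNC2 siRNA replicate 3, IRF3 also with both strands and ISG15 also without NC siRNA replicate 2.

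Replicate numbers are shared between the groups, but same-numbered libraries did not deviate together (r = -0.29, -0.10 and -0.17 across 12186 genes, which are not independent), so they were not treated as pairs. With a replicate block, 8400 genes were called, 14 of the 36 genes were higher and 10 lower, and IRF9, DDX60 and IFIT5 lost their calls (log2 fold change 0.19, 0.59 and -0.29; adjusted p = 0.0533, 0.0562 and 0.0631).

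Depth limits the low genes most: IRF5, IFITM2, OAS2, OASL, ISG20, IFI44 and IFI44L, which averaged below 2 CPM in at least 1 group, and the 6 genes under the filter rest on few reads.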
